A study of Mus musculus with 26 samples.

Results

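The comparison described here set the spleens of mice given ovalbumin and a microRNA mimic against the spleens of mice given ovalbumin alone, by RNA sequencing. It holds the 5 libraries with the code MM and the 6 libraries with the code OS, 11 of the 26 libraries of the series, chosen by their code and by no measured value. Both codes were female BALB/c mice aged 8 weeks that received ovalbumin (OVA, the main protein of egg white and a common model allergen) at 0.05 mg per day by injection into the peritoneum on days 1, 3 and 5. The MM mice also received a synthetic miR-676-3p mimic, 7 mg per kg of body weight into the tail vein on day 3, directly after the OVA injection of that day. The OS mice received OVA with no mimic, and no control oligonucleotide is named for them in the labels. The labels give 20 mice per group, do not define the codes, and do not say whether each library came from a separate mouse, so p-values measure only the spread between these libraries, which may be technical. RNA came from whole spleen with selection of poly(A) transcripts, in which fewer cells of a type and less RNA per cell cannot be told apart.

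A microRNA mimic is a short synthetic duplex that is loaded into an Argonaute protein and guides it to messenger RNAs whose 3′ UTR pairs with the seed of the microRNA. Pairing lowers translation and shortens the life of the target, so targets of an active mimic are usually read as transcripts with a seed match that fall. In the spleen, OVA given without adjuvant meets B cells, T cells and dendritic cells in the white pulp, and macrophages, granulocytes and, in the mouse, blood-forming cells in the red pulp.

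The mature microRNA and its seed are shown first because they define the transcripts that the mimic could pair with. RefSeq places mmu-miR-676-3p on chromosome X of GRCm38.p6 at chrX:100381151-100381171 on the + strand, inside a hairpin of 89 bases from 100381097 to 100381185. Capitals mark the seed, bases 2 to 8 from the 5′ end.
mmu-miR-676-3p: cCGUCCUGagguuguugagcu
No other mature mouse microRNA in that table has the same seed (0 found), and the matching site in a messenger RNA reads CAGGACG. The entry for the Mir676 hairpin had 0 reads in all 11 libraries, and a mature microRNA or a mimic has no poly(A) tail for these libraries to select, so the dose that reached the spleen was not measured here.

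The 11 libraries held 14224832 to 17116273 reads assigned to genes, as recovered from the deposited values, with MM2 the lowest and MM1 the highest. Spleen markers were present in every library: Cd79a, a signalling subunit of the B-cell receptor, had 182 to 464 FPKM in MM and 108 to 478 FPKM in OS, and Spic, which directs the red pulp macrophage fate, had 37.8 to 49.3 FPKM in MM and 33.4 to 60.3 FPKM in OS. FPKM, the unit deposited by the authors, counts fragments relative to gene length and library size. In MM2, 16.3% of reads came from a list of 36 pancreas genes, against 0.00215% to 0.00365% of reads in the other 10 libraries. OS5 stood farthest from the others on the first principal component, at 50.61, where the other 10 libraries lay between -34.96 and 25.97 and both codes lay on both sides of 0. That component held 34.15% of the variance of the tested genes. The main list counts are therefore also given without MM2 and OS5, and without other single libraries that moved them. Without both, the all-gene shares lower and higher at an unadjusted p under 0.05 were 5.12% and 3.85%. Counts of list members without both are read against these. The all-gene numbers moved with 1 library left out too. Of 15672 genes tested, 631 were lower and 489 higher without OS5, and 573 and 338 without OS4. The numbers were 538 and 366 without MM2, and 293 and 256 without MM1. Over all fits without 1 library they ran from 293 to 631 lower and from 253 to 489 higher.

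No gene passed the test. Among 15672 genes (FPKM no lower than 1 in 5 or more of the 26 libraries), 0 had a Benjamini-Hochberg adjusted p under 0.05 in limma's test on log2(FPKM + 1), and 0 had one with limma voom on the recovered reads. The smallest adjusted p was 0.433 and was shared by 6 genes. At an unadjusted p under 0.05, limma gave 751 genes (4.79%) and voom 758, where 783.6 are what such a threshold gives by chance. Of the 751, 327 (2.09% of all genes tested) were higher in MM and 424 (2.71%) lower. The MM and OS ranges did not overlap for 85 genes (0.542%), 40 of them higher in MM (0.255%) and 45 lower (0.287%). Differences were small: 82.1% of genes lay within 0.25 of 0 on the log2 scale, 63 differed at least 2-fold, and the median was -0.0037 with 51.1% of genes below 0. The median standard error of a difference was 0.16, and adding 1 before the logarithm understates the change of genes near or under 1 FPKM.

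Leaving out OS5 gave the only call of any setting tried, at an adjusted p of 0.0497 for Gpr34 on chromosome X, which encodes a receptor for lysophosphatidylserine. Gpr34 had 4.9997, 5.13, 4.83, 6.09 and 5.08 FPKM in MM1 to MM5, against 2.50 to 6.36 FPKM in OS (median 2.77). All MM libraries were above 5 of the 6 OS libraries, and OS5 was above every MM library. The log2 difference of Gpr34 was 0.58 ± 0.18 over all 11 libraries (adjusted p 0.869), 0.74 without OS5 and 0.75 without both MM2 and OS5 (adjusted p 0.135).

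The members of 44 gene lists were then counted by direction. The lowest median differences were those of the neutrophil list, the immediate early genes, and the erythroid, proliferation and platelet lists, and the highest, apart from 5 pancreas genes read in MM2, were those of the light-chain V segments and the red pulp macrophage genes. The all-gene median of -0.0037 is the level against which each list is set. No member of any list passed the test.

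**Figure D1:**
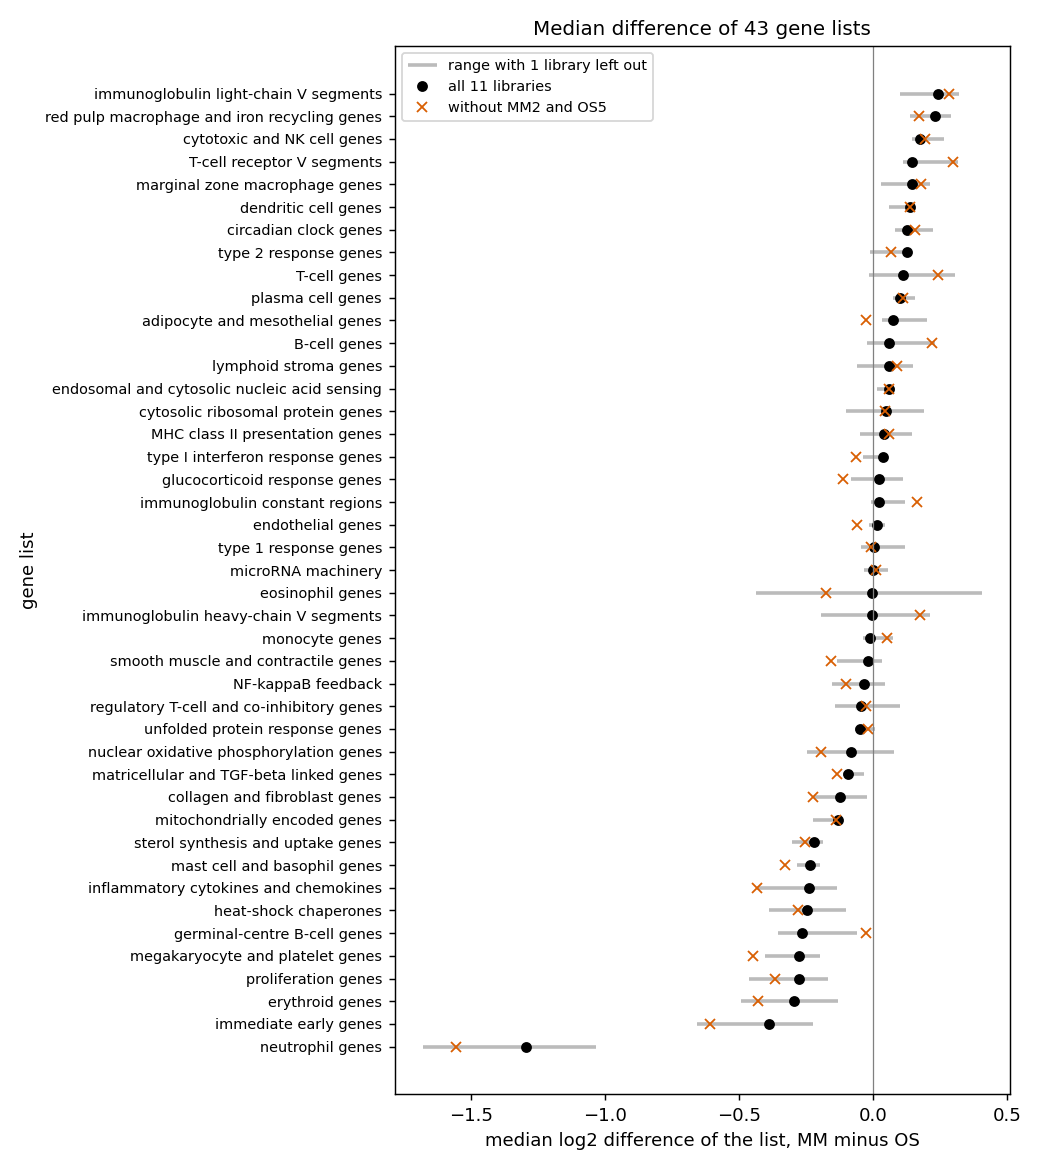
Median log2 difference, MM minus OS, of 43 gene lists over all 11 libraries (black points), without MM2 and OS5 (crosses) and over the 11 fits that each left out 1 library (grey bars). The neutrophil list lies at -1.30, apart from the other lists, which lie between -0.39 and 0.24.

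Transcripts with a site for the seed of miR-676-3p did not lie lower in MM than other transcripts. A site of 7 bases was found in the 3′ UTR of 366 of 11899 tested protein-coding genes with an annotated 3′ UTR (GENCODE M21 on GRCm38). Of these 366, 168 (45.9%) lay below 0, against 5816 of 11533 genes with no site (50.4%). Their median log2 difference was 0.01, and that of genes with no site was -0.0013. Genes with a site had a longer 3′ UTR, at a median of 2188 bases against 1113 bases, and no correction for length was made. At an unadjusted p under 0.05, 7 genes with a site were higher in MM and 3 lower, and among the genes with no site 238 were higher and 285 lower. In the stricter class of 74 genes whose site also has an A facing base 1 of the microRNA, 28 lay below 0, 1 was higher at that threshold and 0 were lower.

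The sites below are those of 4 genes with a site and an unadjusted p under 0.05, 2 lower in MM and the 2 higher ones whose codes did not overlap. They are shown with their neighbouring bases in transcript direction on GRCm38, with capitals for the match to the seed, and were chosen after their values were seen. The Pde4d sites lie at chr13:109951471-109951477 (+) and chr13:109951594-109951600 (+), and that of Cass4 at chr2:172429327-172429333 (+). The Klhl18 site lies at chr9:110427900-110427906 (-) and the Rhbdl3 site at chr11:80354302-80354308 (+).
Pde4d, first site: actgtcatctgcCAGGACGtttgttgaaca
Pde4d, second site: tgtcttcacgtaCAGGACGtggacgtgacg
Cass4: taccctggcaggCAGGACGcagcccttggc
Klhl18: gaacattttccaCAGGACGgaaacagaaaa
Rhbdl3: ccaagagagttcCAGGACGgtttcttcttc
Pde4d, a cyclic AMP phosphodiesterase and the only one of these with 2 sites, had 2.12, 2.65, 2.29, 2.55 and 2.51 FPKM in MM1 to MM5, against 2.34 to 4.17 FPKM in OS (median 3.23). Cass4, an adaptor of the Cas family in adhesion signalling, had 1.46, 1.41, 1.27, 1.32 and 0.978 FPKM in MM1 to MM5, against 1.43 to 2.60 FPKM in OS (median 1.79). Both were lower in MM on average, by 0.30 on the log2 scale (adjusted p 0.988 and 0.993), with 1 OS library inside the MM range for each. Klhl18, which recruits substrates to a cullin ubiquitin ligase, had 6.92, 6.94, 6.49, 7.12 and 7.29 FPKM in MM1 to MM5, against 5.51 to 6.24 FPKM in OS (median 6.04), and its MM libraries were all above its OS libraries by a small margin. Rhbdl3, a rhomboid-like membrane protein, had 2.21, 1.83, 1.73, 1.47 and 1.41 FPKM in MM1 to MM5, against 1.16 to 1.40 FPKM in OS (median 1.25), again without overlap. The log2 difference was 0.19 ± 0.07 for Klhl18 (adjusted p 0.988) and 0.26 ± 0.10 for Rhbdl3 (adjusted p 0.993), so both were higher in MM. The list of microRNA machinery genes (Argonaute, Dicer, deadenylase and related genes) had a median of 0.00, with 8 of 16 below 0 and 0 at an unadjusted p under 0.05. Ago2, the slicing Argonaute, had 16.7 to 36.4 FPKM in MM and 15.5 to 42.0 FPKM in OS.

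The genes with the smallest p-values that were lower in MM included several receptors of myeloid cells. The list of monocyte genes had 9 of 16 members below 0 at a median of -0.01, and of 0.05 without MM2. Of these 16, 2 were lower and 0 higher at an unadjusted p under 0.05. Gpcpd1, which splits glycerophosphocholine (chromosome 2 from 132371002 to 132429649 in the deposited table, on a build not given in the sources used here), had 27.6, 28.5, 28.8, 34.3 and 31.0 FPKM in MM1 to MM5, against 38.2 to 54.8 FPKM in OS (median 47.3). Its highest MM library was below its lowest OS library, with a log2 difference of -0.65 ± 0.11 (adjusted p 0.433). Mapk6, the atypical MAP kinase ERK3 (chromosome 9 from 75276344 to 75317287), had 9.80, 10.3, 9.88, 10.7 and 10.6 FPKM in MM1 to MM5, against 13.4 to 15.7 FPKM in OS (median 14.4). Its groups were likewise apart, by -0.45 ± 0.08 (adjusted p 0.433).

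Clec4e, the receptor Mincle for microbial glycolipids and dying cells (chromosome 6 from 123258748 to 123266829), had 1.13, 1.79, 0.948, 1.22 and 1.08 FPKM in MM1 to MM5, against 2.11 to 3.02 FPKM in OS (median 2.47). Trem1, a receptor that amplifies inflammatory signals in neutrophils and monocytes (chromosome 17 from 48539796 to 48553952), had 2.84, 2.76, 1.35, 1.98 and 2.02 FPKM in MM1 to MM5, against 3.79 to 4.79 FPKM in OS (median 3.996). Ccr1, a receptor for CCL3 and CCL5 on myeloid cells (chromosome 9 from 123762161 to 123768729), had 4.05, 5.13, 3.37, 5.41 and 5.15 FPKM in MM1 to MM5, against 6.36 to 9.75 FPKM in OS (median 7.79). For all 3 receptors every MM library was below every OS library, with log2 differences of -0.65 ± 0.12, -0.70 ± 0.13 and -0.66 ± 0.14 in this order and adjusted p of 0.433, 0.433 and 0.720. These 3 receptors were named for a small p or a wide gap between codes, so their lack of overlap follows from that choice. MM2 and MM4 were the highest MM libraries for Clec4e, as in the mean of the neutrophil list below. The highest were MM1 and MM2 for Trem1, and MM4 and MM5 for Ccr1. Lilr4b, an inhibitory receptor of myeloid cells with a close paralogue that its reads may be shared with, had 3.77, 5.77, 1.87, 4.96 and 3.42 FPKM in MM1 to MM5, against 5.70 to 13.8 FPKM in OS (median 9.61), with MM2 just above the lowest OS library. Its log2 difference was -1.07 ± 0.25 (adjusted p 0.720).

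Irf4, a transcription factor needed for plasma cells and for several T-cell fates (chromosome 13 from 30933209 to 30950959), had 22.1, 13.9, 16.3, 19.5 and 20.1 FPKM in MM1 to MM5, against 22.8 to 39.1 FPKM in OS (median 34.1). The highest MM library lay just below the lowest OS library, and the log2 difference was -0.75 ± 0.17 (adjusted p 0.720). Zfand5, a zinc-finger protein that activates the proteasome, had 15.5, 12.5, 14.8, 14.1 and 13.9 FPKM in MM1 to MM5, against 17.1 to 26.5 FPKM in OS (median 22.6), with a difference of -0.58 ± 0.14 (adjusted p 0.726). Serpina3a, a serine protease inhibitor, and Osgin2, of the oxidative stress-induced growth inhibitor family, were the other genes in this group, lower in MM by 0.54 ± 0.12 and 0.42 ± 0.10 on the log2 scale (adjusted p 0.720 and 0.720) and without overlap.

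Among the genes that were higher in MM, Apod had the smallest p. Apod encodes apolipoprotein D, a carrier of small lipids (chromosome 16 from 31115010 to 31133626), and had 1.84, 1.602, 1.26, 1.26 and 1.44 FPKM in MM1 to MM5, against 0.320 to 0.846 FPKM in OS (median 0.566). The lowest MM library was above the highest OS library at these low levels, and the log2 difference was 0.66 ± 0.12 (adjusted p 0.433). Fkbp5, a co-chaperone that restrains the glucocorticoid receptor and is itself induced by glucocorticoids (chromosome 17 from 28618068 to 28736501), had 9.39, 15.5, 15.9, 8.92 and 11.1 FPKM in MM1 to MM5, against 4.09 to 7.74 FPKM in OS (median 7.19). The MM libraries were all above the OS libraries and spread more widely, at a difference of 0.76 ± 0.18 (adjusted p 0.737). Slc35c1, the transporter that carries GDP-fucose into the Golgi, had 12.7, 13.2, 13.01, 12.9 and 11.4 FPKM in MM1 to MM5, against 8.40 to 10.3 FPKM in OS (median 9.29), again without overlap, at a difference of 0.40 ± 0.08 (adjusted p 0.720).

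Of the other genes higher in MM, Slco2b1, an uptake transporter of organic anions, Tspan4, a tetraspanin, and Calhm2, of the calcium homeostasis modulator channels, were higher in MM by 0.38 ± 0.09, 0.54 ± 0.13 and 0.69 ± 0.16. Adamtsl2, a secreted matrix glycoprotein, and Ndrg2, of the N-myc downstream regulated family, were higher by 0.49 ± 0.11 and 0.54 ± 0.13. D11Wsu47e was higher by 0.35 ± 0.08. None of these 6 overlapped between codes. Sult1a1, a phenol sulfotransferase, and Jade2, a subunit of a histone acetyltransferase complex, were higher by 0.73 ± 0.17 and 0.54 ± 0.12 with 1 MM library inside the OS range for each. The adjusted p of these 8 genes was 0.720 in each case.

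**Figure D2:**
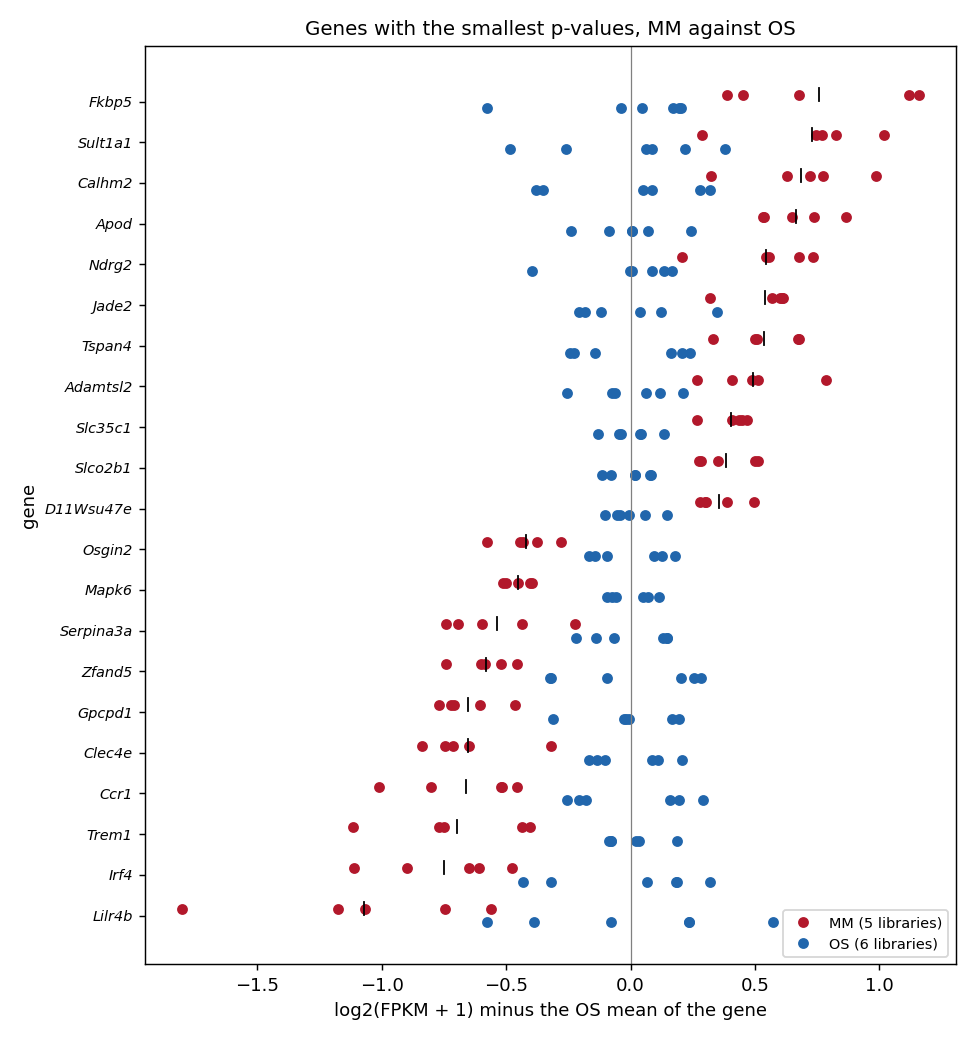
Level of 21 genes with the smallest p-values or the widest gaps between codes in each library, as log2(FPKM + 1) minus the OS mean of the gene (5 MM points above 6 OS points, black ticks for the MM mean). For each gene all MM points lie on 1 side of 0, and Lilr4b, Sult1a1 and Jade2 are the 3 genes where the codes overlap.

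Neutrophil genes gave the lowest list median of the comparison and were split within MM. All 22 members tested lay below 0, with a median log2 difference of -1.30, and 16 were lower at an unadjusted p under 0.05, against 2.71% of all genes. The mean level of the list, set to 0 at the OS mean, was -1.87, 0.25, -1.80, -0.31 and -1.97 in MM1 to MM5, and ran from -0.65 to 0.47 in OS. MM1, MM3 and MM5 were below every OS library, and MM2 and MM4 were within the OS range. Without MM2 and OS5 the list median was -1.56 and 21 of 22 were lower at that threshold. The count depended on single libraries: it was 21 without MM2 or MM4, 10 without OS3 or OS5, 9 without OS6, 7 without MM1 or MM3 and 6 without MM5. All 22 members lay below 0 under each of these, and the median ran from -1.68 without MM2 to -1.04 without MM5.

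S100a8, a subunit of the neutrophil protein calprotectin, had 270, 1210, 309, 815 and 249 FPKM in MM1 to MM5, against 503 to 1846 FPKM in OS (median 1241). Its log2 difference was -1.29 ± 0.47 (adjusted p 0.986). Ngp, the neutrophilic granule protein, had 152, 809, 140, 695 and 153 FPKM in MM1 to MM5, against 369 to 1103 FPKM in OS (median 744), a difference of -1.30 ± 0.51 (adjusted p 0.992). For both genes MM1, MM3 and MM5 were below every OS library, and MM2 and MM4 were not. Retnlg, a resistin-like protein of mature neutrophils, had 13.4, 61.2, 10.8, 33.9 and 9.62 FPKM in MM1 to MM5, against 38.6 to 88.2 FPKM in OS (median 72.8), a difference of -1.72 ± 0.43 (adjusted p 0.761), with only MM2 above the lowest OS library. Elane, neutrophil elastase, which is made at the promyelocyte stage, had 15.8, 134, 20.9, 66.8 and 13.2 FPKM in MM1 to MM5, against 47.1 to 162 FPKM in OS (median 84.3), a difference of -1.41 ± 0.57 (adjusted p 0.993). Genes of early granule formation and of mature cells were thus lower in the same 3 libraries. Cxcr2, the chemokine receptor of circulating neutrophils, had the smallest difference of the list, with 6.03, 6.54, 4.61, 7.44 and 6.09 FPKM in MM1 to MM5, against 5.84 to 9.79 FPKM in OS (median 7.35) and overlap between codes.

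Basophil genes were also lower in MM on average, without passing the test. Of 10 mast cell and basophil genes tested, 8 lay below 0, and the median was -0.23. At an unadjusted p under 0.05, 3 were lower and 1 higher, against 2.71% and 2.09% of all genes. These counts were 1 and 1 without MM5 or OS3, and 4 and 0 without MM2 or OS2. The list mean was below every OS library in MM1, MM3 and MM5, and within the OS range in MM2 and MM4, as for the neutrophil list. Hdc, which makes histamine, had 4.76, 5.78, 2.35, 5.08 and 3.04 FPKM in MM1 to MM5, against 5.15 to 12.8 FPKM in OS (median 7.53). Only OS5 lay within the MM range, and the log2 difference was -0.84 ± 0.23 (adjusted p 0.835). Mcpt8, a basophil protease, had 2.46, 4.46, 1.59, 4.67 and 1.14 FPKM in MM1 to MM5, against 2.30 to 11.2 FPKM in OS (median 6.31), with overlap, at -0.92 ± 0.35 (adjusted p 0.988). Prss34, another basophil protease, differed by -1.05 ± 0.46 (adjusted p 1.000). The member that was higher was Cma1, a mast cell chymase, which differed by 0.44 ± 0.18 (adjusted p 0.997).

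Eosinophil granule genes varied widely between libraries and did not follow the codes. Prg2, the eosinophil major basic protein, had 6.68, 705, 9.49, 311 and 4.87 FPKM in MM1 to MM5, and 565, 40.5, 58.3, 12.5, 397 and 4.56 FPKM in OS1 to OS6. Ear1, an eosinophil-associated ribonuclease with near-identical relatives, had 0.313, 96.5, 0.754, 62.7 and 0.740 FPKM in MM1 to MM5, and 90.2, 2.40, 5.98, 0.634, 108 and 0.180 FPKM in OS1 to OS6. MM2, MM4, OS1 and OS5 were high for both genes and the other 7 libraries were low, so each code held libraries of both kinds. The differences between codes were small beside this spread, at -0.55 ± 1.54 for Prg2 (adjusted p 1.000) and -0.21 ± 1.55 for Ear1 (adjusted p 1.000). Of 10 eosinophil genes tested 5 lay below 0, the median was -0.0034, and 0 had an unadjusted p under 0.05. In MM the libraries high in eosinophil genes, MM2 and MM4, were also the highest in neutrophil genes. In OS this was not so, since OS1 was the lowest OS library in neutrophil genes.

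**Figure D3:**
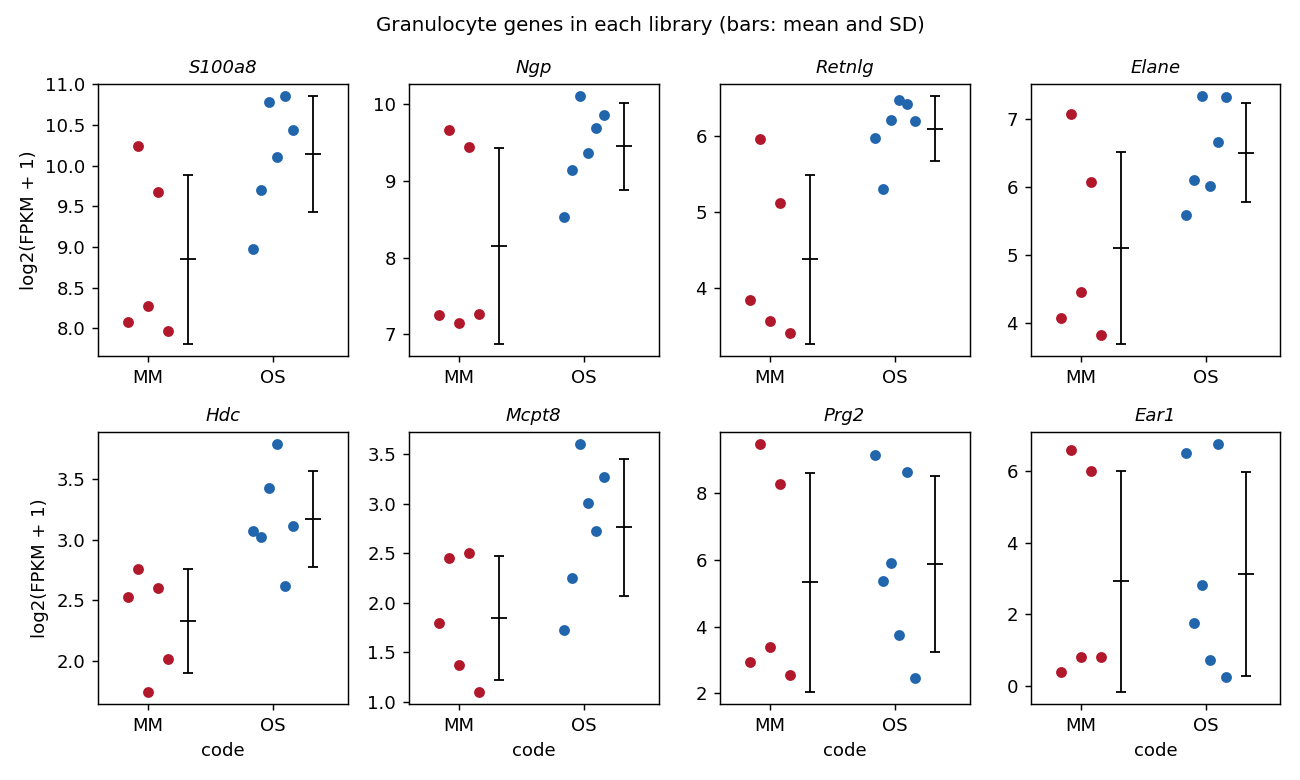
log2(FPKM + 1) of 4 neutrophil genes (S100a8, Ngp, Retnlg, Elane), 2 basophil genes (Hdc, Mcpt8) and 2 eosinophil genes (Prg2, Ear1) in each of 5 MM (left) and 6 OS libraries (right), with mean and SD. The vertical axes differ between panels and most do not start at 0. The neutrophil genes show MM1, MM3 and MM5 below all OS libraries, joined by MM4 for Retnlg, and the eosinophil genes a high and a low set of libraries in both codes.

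The platelet, erythroid and proliferation lists also had medians below 0, by small amounts. All 19 megakaryocyte and platelet genes lay below 0 with a median of -0.28, and 1 was lower at an unadjusted p under 0.05. That count was 0 without MM1, MM3, MM5 or OS6, and 5 without MM2. It was 10 without MM2 and OS5, with a median of -0.45. Pf4, platelet factor 4, had 147, 211, 189, 142 and 105 FPKM in MM1 to MM5, against 111 to 302 FPKM in OS (median 220), a difference of -0.35 ± 0.29 (adjusted p 1.000). Ppbp, another platelet chemokine, had 204, 422, 278, 357 and 239 FPKM in MM1 to MM5, against 239 to 524 FPKM in OS (median 403), a difference of -0.33 ± 0.26 (adjusted p 1.000). Both genes overlapped widely between codes. The erythroid list had 21 of 22 members below 0, a median of -0.29 and 0 members at that threshold in either direction. Haemoglobin genes took 1.86% to 2.41% of reads in MM and 1.77% to 4.62% in OS, with the 2 highest shares in OS3 and OS6. The erythroid median was -0.20 without OS3, -0.13 without OS6 and -0.49 without OS4, where 3 members were lower at that threshold. All 28 proliferation genes (such as Mki67) lay below 0 at a median of -0.28, with 1 member lower at that threshold. The count was 0 without MM1, MM4, MM5, OS3, OS5 or OS6. It was 12 without OS4, the OS library with the lowest mean of this list. For both the erythroid and the proliferation list, the mean of every MM library lay within the OS range.

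Genes of cholesterol synthesis and uptake were lower in MM on average, by small amounts. These genes are controlled by SREBP2, a membrane-bound transcription factor released when the sterol content of the cell falls. Of 19 tested, 16 lay below 0, the median log2 difference was -0.22, and 8 were lower and 0 higher at an unadjusted p under 0.05, against 2.71% and 2.09% of all genes. The mean level of the list was -0.17, -0.32, -0.17, -0.17 and -0.30 in MM1 to MM5, and -0.19 to 0.09 in OS. OS5, at -0.19, was the only OS library within the MM range. Without MM2 and OS5, 17 of 19 lay below 0, 6 were lower at that threshold, and the median was -0.25. Without MM2 alone 5 were lower.

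Msmo1, a sterol demethylating oxidase, and Sqle, squalene epoxidase, had 3.62, 2.70, 4.23, 3.63 and 3.49 FPKM in MM1 to MM5, against 3.82 to 6.37 FPKM in OS (median 5.14) for Msmo1 and 3.13, 3.46, 3.50, 4.06 and 3.12 FPKM in MM1 to MM5, against 3.67 to 6.32 FPKM in OS (median 4.53) for Sqle. Each had overlap between codes, with differences of -0.43 ± 0.12 and -0.36 ± 0.12 (adjusted p 0.869 and 0.878). Hmgcs1, a synthase of the first steps of the pathway, differed by -0.35 ± 0.14 (adjusted p 0.992). Srebf2, which encodes SREBP2, and Insig1, which retains it in the membrane, were among the most abundant members and differed by -0.17 ± 0.14 and -0.22 ± 0.16, with overlap and an adjusted p of 1.000 each. The Insig1 difference was -0.43 without MM2 and OS5.

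The promoter of Hmgcs1 is shown because it was the only one of 14 sterol gene promoters, matched for 14 of 20 genes in the RefSeq table (250 bases before to 50 after the start, GRCm38.p6), with the sterol regulatory element searched for, TCACNCCAC, on either strand. That motif occurs in 1.44% of 27025 promoters. The promoter lies at chr13:119690101-119690400 (+), and capitals mark the match, which starts at position -137 from the transcription start.
Hmgcs1 promoter: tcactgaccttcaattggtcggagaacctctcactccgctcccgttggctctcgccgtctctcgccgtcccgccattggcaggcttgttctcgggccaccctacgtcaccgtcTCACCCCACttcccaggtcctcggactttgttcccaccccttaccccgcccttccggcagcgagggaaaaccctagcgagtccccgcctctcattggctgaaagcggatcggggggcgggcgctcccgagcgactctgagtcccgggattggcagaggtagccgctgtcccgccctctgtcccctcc
Other spellings of the element were not searched, and a match describes letters only.

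Clock output genes were higher in MM on average, and the repressor Nfil3 was lower. The circadian clock is a feedback loop in which CLOCK and BMAL1 switch on the Per, Cry and Nr1d genes and the PAR bZIP factors Dbp, Tef and Hlf, whose sites are also bound by the repressor Nfil3. Of 16 clock genes tested, 10 lay above 0, the median was 0.13, and 7 were higher and 1 lower at an unadjusted p under 0.05, against 2.09% and 2.71% of all genes. The 7 were Tef, Hlf, Dbp, Nr1d2, Per2, Per3 and Nr1d1, and the 1 was Nfil3. The mean level of the list, at 0.05 to 0.14 in MM and -0.21 to 0.18 in OS, did not separate the codes. Without MM2 and OS5, 7 were higher and 3 lower, and the median was 0.16.

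Tef (chromosome 15 from 81686622 to 81711064) had 12.3, 10.9, 10.5, 12.9 and 13.3 FPKM in MM1 to MM5, against 6.07 to 9.74 FPKM in OS (median 8.65). All MM libraries were above all OS libraries, with a log2 difference of 0.50 ± 0.13 (adjusted p 0.761). Dbp had 12.9, 9.05, 11.1, 7.65 and 10.2 FPKM in MM1 to MM5, against 3.42 to 8.80 FPKM in OS (median 6.75), and Hlf had 1.40, 1.41, 1.41, 2.08 and 1.51 FPKM in MM1 to MM5, against 0.593 to 1.64 FPKM in OS (median 0.711). Dbp overlapped through MM4, and Hlf through OS5, which was above 4 of the 5 MM libraries. Their differences were 0.63 ± 0.20 (adjusted p 0.869) and 0.49 ± 0.15 (adjusted p 0.869). Nfil3 had 4.88, 6.55, 5.86, 3.18 and 3.02 FPKM in MM1 to MM5, against 3.77 to 14.9 FPKM in OS (median 11.5), and OS5 was the only OS library within the MM range, at a difference of -0.95 ± 0.30 (adjusted p 0.873).

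Nr1d1 and Nr1d2, the nuclear receptors REV-ERB alpha and beta that repress Bmal1, were higher by 0.40 ± 0.17 and 0.44 ± 0.15 (adjusted p 0.997 and 0.886). Per2 and Per3, of the period repressors, were higher by 0.35 ± 0.12 and 0.28 ± 0.11 (adjusted p 0.986 and 0.988). Per1, which also responds to glucocorticoids and to acute stimuli, had 22.7, 40.4, 29.7, 29.9 and 22.2 FPKM in MM1 to MM5, against 16.2 to 60.7 FPKM in OS (median 43.001), with overlap, at a difference of -0.32 ± 0.33 (adjusted p 1.000) and of -0.66 without MM2 and OS5. Bhlhe40, a repressor of clock output, had 20.8, 10.7, 20.7, 15.9 and 17.5 FPKM in MM1 to MM5, against 12.3 to 34.7 FPKM in OS (median 26.4), at -0.49 ± 0.25 (adjusted p 1.000). The time of day at which each spleen was taken is not given in the labels.

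An E-box, CACGTG, which CLOCK and BMAL1 bind, was found in 5 of 15 clock genes with a promoter in the RefSeq table (of 18). It was also found in 4 of 14 sterol gene promoters and in 8.09% of all 27025. Among the 5 clock genes, only Tef was one of those higher at an unadjusted p under 0.05. The promoter of Tef is shown since Tef was the clock gene without overlap. Of 2 Tef starts in the table, the first is shown, at chr15:81802423-81802722 (+), and capitals mark the E-box, which starts at position -127 from the start site.
Tef promoter: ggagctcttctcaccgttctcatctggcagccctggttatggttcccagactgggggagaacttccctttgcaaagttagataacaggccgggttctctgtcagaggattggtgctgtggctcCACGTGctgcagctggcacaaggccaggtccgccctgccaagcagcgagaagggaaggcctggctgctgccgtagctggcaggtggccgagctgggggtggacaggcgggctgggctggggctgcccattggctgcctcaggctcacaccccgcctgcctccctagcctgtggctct
The D-box searched, TTATGNAA, which Dbp, Tef, Hlf and Nfil3 bind, was found in 2 of the 15 promoters, those of Per1 and Per3, and in 3.99% of all.

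**Figure D4:**
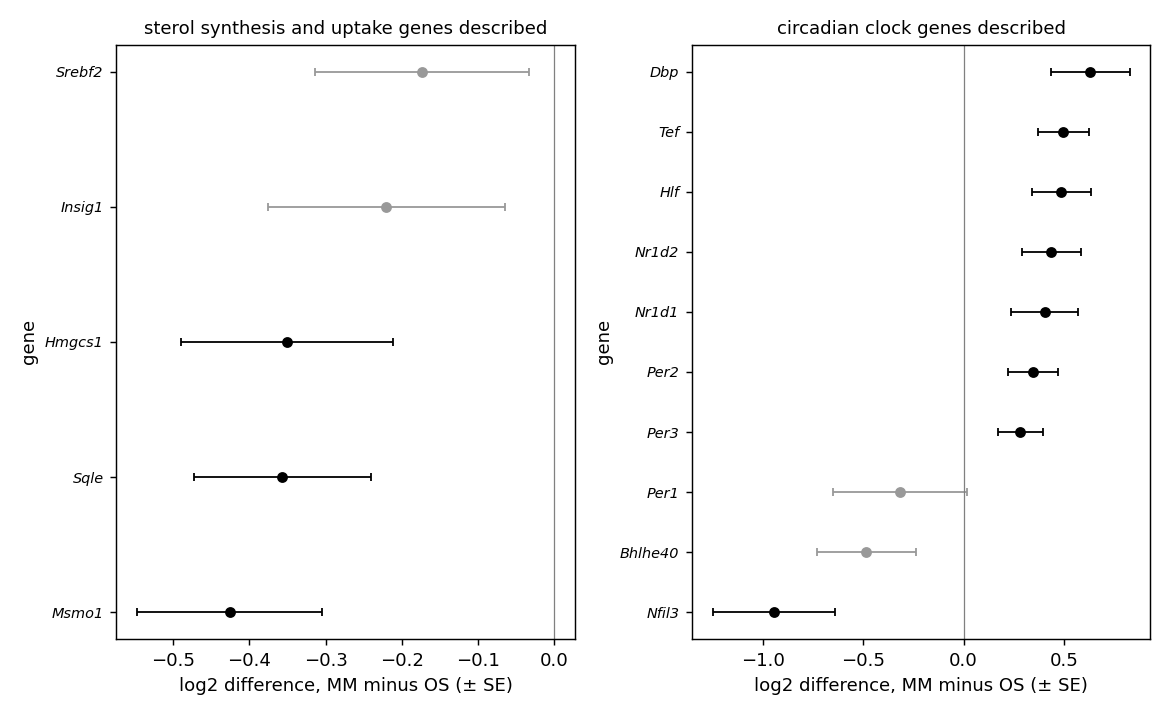
Log2 difference, MM minus OS, with its standard error for the sterol genes (left) and clock genes (right) described in the text. Black marks an unadjusted p under 0.05, and no gene passed after adjustment. Msmo1 lies at -0.43 and Tef at 0.50.

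Glucocorticoid response genes gave no single direction. Of 13 members tested, 2 were higher at an unadjusted p under 0.05, Fkbp5 among them, 0 were lower, and the median was 0.02. Without OS5, 2 were higher and 2 lower, and without MM2 and OS5, 2 were higher and 3 lower, at a median of -0.11. Ddit4, a stress-induced inhibitor of mTORC1, had 205, 193, 207, 130 and 113 FPKM in MM1 to MM5, against 46.4 to 160 FPKM in OS (median 112), at 0.66 ± 0.31 (adjusted p 1.000). Errfi1, which restrains EGF receptor signalling, had 95.2, 97.0, 81.7, 79.5 and 83.7 FPKM in MM1 to MM5, against 65.1 to 158 FPKM in OS (median 120), at -0.26 ± 0.23 (adjusted p 1.000). OS5 and OS6 were the 2 lowest OS libraries for both, and both overlapped between codes.

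Immediate early genes, which are transcribed within minutes of a stimulus, were lower on average in MM and depended on OS5. Of 32 tested, 28 lay below 0, the median was -0.39, and 3 were lower and 0 higher at an unadjusted p under 0.05. The mean level of the list was 0.41 in MM1 and -0.95 to -0.38 in the other 4 MM libraries. It was -1.53 in OS5 and -0.08 to 0.59 in the other 5 OS libraries. The lowest library of all 11 was therefore an OS library. Without OS5 the median was -0.66 and 16 of 32 were lower at that threshold, against 631 of all 15672 genes. Without MM2 and OS5 13 were lower. Without MM3, MM4, OS2, OS3 or OS4, 0 were lower. OS5 also stood apart on the first principal component, and the part of that in these values was not tested.

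Fosb, a subunit of the AP-1 factor, had 8.38, 2.61, 1.17, 0.701 and 3.42 FPKM in MM1 to MM5, against 0.424 to 19.8 FPKM in OS (median 12.5). Atf3, a stress-induced repressor, had 18.7, 10.03, 4.20, 2.45 and 7.69 FPKM in MM1 to MM5, against 2.76 to 51.1 FPKM in OS (median 25.9). MM4 and OS5 were the 2 lowest libraries for both, and the differences were -1.38 ± 0.65 for Fosb and -1.36 ± 0.62 for Atf3 (adjusted p 1.000 for each). Nr4a3, an orphan nuclear receptor, had 3.88, 4.18, 3.29, 3.38 and 4.07 FPKM in MM1 to MM5, against 2.97 to 15.1 FPKM in OS (median 8.499), at -0.77 ± 0.31 (adjusted p 0.993), with OS5 and OS6 in or below the MM range. Klf6 differed by -0.54 ± 0.22 (adjusted p 0.992). The heat-shock chaperones, a further stress list, had a median of -0.25, with 12 of 15 below 0 and 1 lower at that threshold. This count was 4 without OS5, 5 without MM2 and OS5, and 0 without MM2.

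Of 18 inflammatory cytokine and chemokine genes tested, 14 lay below 0 with a median of -0.24, and 1 was higher and 1 lower at an unadjusted p under 0.05. Il1rn, the decoy ligand of the interleukin-1 receptor, had 1.06, 0.861, 0.751, 0.588 and 0.673 FPKM in MM1 to MM5, against 0.928 to 2.04 FPKM in OS (median 1.48), with overlap through MM1, at -0.46 ± 0.14 (adjusted p 0.869). Il1b, interleukin-1 beta, had 64.5, 57.9, 50.2, 59.5 and 59.8 FPKM in MM1 to MM5, against 28.3 to 83.1 FPKM in OS (median 58.4). The MM libraries lay within the OS range, the difference was 0.11 ± 0.25 (adjusted p 1.000), and its sign turned to -0.0753 without OS5. Without MM2 and OS5, 6 of 18 were lower and 1 higher at that threshold, with a median of -0.43, and 7 were lower without OS5 alone and 4 without MM1.

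Among 20 matricellular genes and genes linked to TGF-beta, 11 lay below 0 and 9 above, with a median of -0.09. At an unadjusted p under 0.05, 4 were lower and 0 higher, against 2.71% and 2.09% of all genes. These counts were 2 and 0 without MM3 or OS6, 5 and 1 without OS5, and 6 and 1 without MM2 and OS5. The members described here all lay below 0. Thbs1, thrombospondin 1, which is stored in platelets and activates latent TGF-beta, had 25.7, 50.4, 22.7, 37.2 and 27.4 FPKM in MM1 to MM5, against 36.5 to 60.1 FPKM in OS (median 46.6), with MM2 and MM4 in the OS range, at -0.53 ± 0.20 (adjusted p 0.988). Tgfb1i1, the focal adhesion protein Hic-5, had 5.16, 7.01, 5.99, 5.52 and 5.32 FPKM in MM1 to MM5, against 5.20 to 11.6 FPKM in OS (median 8.29), with only OS5 in the MM range, at -0.45 ± 0.16 (adjusted p 0.978). Adamts1, a secreted metalloprotease, differed by -0.70 ± 0.30 (adjusted p 1.000).

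**Figure D5:**
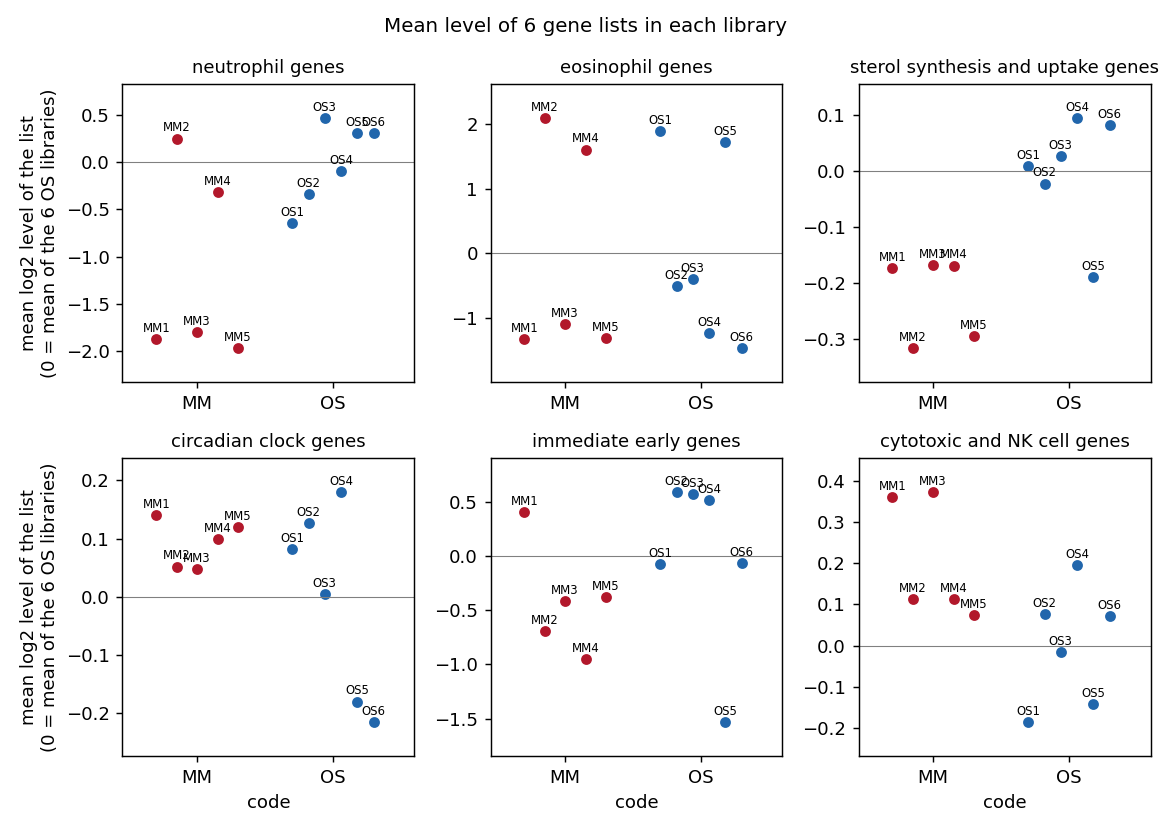
Mean log2 level of 6 gene lists in each of the 5 MM (left) and 6 OS libraries (right), with 0 at the mean of the 6 OS libraries. MM1, MM3 and MM5 lie lowest in the neutrophil list, OS5 lies at -1.53 in the immediate early list, and MM2, MM4, OS1 and OS5 lie highest in the eosinophil list.

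Lymphoid lists showed small differences of mixed sign. T-cell genes lay above 0 in 20 of 25 cases at a median of 0.11, and B-cell genes in 12 of 18 at a median of 0.06, with 0 members of either list at an unadjusted p under 0.05. Both list means were lowest in MM2 among MM, at -0.72 for T-cell genes and -0.68 for B-cell genes, and without MM2 the medians were 0.31 and 0.23. The T-cell median was -0.01 without MM1 and -0.0084 without MM3, and the B-cell median was -0.02 without OS3. All 11 germinal-centre B-cell genes lay below 0 at a median of -0.26, which was -0.06 without MM2. MM2 was also the only library of the comparison with a large share of reads from pancreas genes, at 16.3%. Of the settings tried, 1 rescaled the libraries without the pancreas genes. Over all settings the medians ran from -0.01 to 0.31 for T-cell, -0.02 to 0.23 for B-cell and -0.35 to -0.03 for germinal-centre genes. Beyond that rescaling, the part of the pancreas share in these values was not tested.

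Cytotoxic and NK cell genes lay above 0 in 15 of 17 cases, with a median of 0.17 and 2 members higher at an unadjusted p under 0.05. Gzmm, granzyme M of NK cells, had 2.41, 1.73, 1.58, 1.14 and 1.02 FPKM in MM1 to MM5, against 0.480 to 1.43 FPKM in OS (median 0.773), at 0.45 ± 0.16 (adjusted p 0.986). Cd160, a receptor of NK cells and cytotoxic T cells on the list of co-inhibitory genes, had 2.16, 1.62, 1.87, 1.15 and 1.95 FPKM in MM1 to MM5, against 0.689 to 1.39 FPKM in OS (median 1.11), at 0.42 ± 0.14 (adjusted p 0.873). Both genes were low and overlapped between codes. T-cell receptor V segments lay above 0 in 34 of 47 cases, with a median of 0.15 and 1 member higher and 1 lower at that threshold. Without MM2 11 were higher and 0 lower, and without MM2 and OS5 10 were higher and 0 lower.

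Antibody V segments varied with the libraries included. Immunoglobulin light-chain V segments lay above 0 in 91 of 109 cases at a median of 0.24, with 7 higher and 0 lower at an unadjusted p under 0.05, and heavy-chain V segments in 39 of 78 at a median of -0.0049, with 2 in each direction. Without OS5 the medians were 0.32 for light and 0.21 for heavy chains, and without OS4 they were 0.10 and -0.19, so the heavy-chain median changed sign. Light and heavy chains were not tested against each other. V segments are similar to each other, so reads may be split between them. Igha, the constant region of IgA, had 93.3, 148, 102, 124 and 130 FPKM in MM1 to MM5, against 60.7 to 103 FPKM in OS (median 80.3). Its ranges overlapped, and the difference was 0.54 ± 0.16 (adjusted p 0.869). In the plasma cell list, 1 member was higher and 3 lower at that threshold, around a median of 0.10. Prdm1, which encodes BLIMP-1 and acts with Irf4 in plasma cell formation, had 6.29, 4.65, 4.55, 5.72 and 5.85 FPKM in MM1 to MM5, against 5.41 to 8.17 FPKM in OS (median 7.23), at -0.32 ± 0.12 (adjusted p 0.986).

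Allergy-linked and antiviral lists had few or no members past the unadjusted threshold. Of 13 type 2 response genes tested, such as Stat6, 6 lay below 0 at a median of 0.13, with 0 at an unadjusted p under 0.05 in either direction and a median of -0.0063 without OS5. Type I interferon response genes, which can respond to foreign RNA, lay above 0 in 13 of 25 cases at a median of 0.04, with 2 higher and 0 lower, and at a median of -0.06 without MM2 and OS5. Isg15, a secreted ubiquitin-like protein, had 42.6 to 92.5 FPKM in MM and 51.9 to 140 FPKM in OS. Genes of endosomal and cytosolic nucleic acid sensing had a median of 0.06, with 1 of 21 higher and 0 lower at that threshold.

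Macrophage and dendritic cell lists had medians above 0 and stromal lists had medians on both sides of it. Red pulp macrophage and iron recycling genes lay above 0 in 13 of 18 cases at a median of 0.23, and dendritic cell genes in 15 of 18 at a median of 0.14, with 0 of either list at an unadjusted p under 0.05. The red pulp median was 0.14 without MM2. In the lymphoid stroma list, 2 of 17 were higher at that threshold, and the median was 0.06 over all libraries and -0.02 without OS5. Collagen and fibroblast genes lay below 0 in 11 of 14 cases at a median of -0.12 with 0 past that threshold, and 5 were lower without MM2 and OS5. Smooth muscle and contractile genes had a median of -0.02, with 1 of 14 lower at that threshold and 5 without MM2 and OS5. Cxcl12, the chemokine that retains blood-forming cells and plasma cells in their niche (chromosome 6 from 117145496 to 117158328), had 92.8, 85.3, 82.2, 90.7 and 89.3 FPKM in MM1 to MM5, against 61.7 to 76.0 FPKM in OS (median 70.1). Every MM library was above every OS library, at a log2 difference of 0.33 ± 0.10 (adjusted p 0.869).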

How the data were processed

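The deposited table holds FPKM values for 56392 genes and 26 libraries, made by the authors before deposit; every column belongs to a library of the series. The submitters' processing notes list edgeR 3.24.3, DESeq2 1.20.0, featureCounts 1.5.0-p3, StringTie 1.3.3b, HISAT2 2.0.5 and CASAVA without saying what each did, on a genome build not given in the sources used here. FPKM times the deposited gene length was a whole multiple of a single step in each library for 100% of values (tolerance 0.05), and the reads of each gene were recovered from this. A single read on 1 kilobase was worth 0.0561 to 0.0794 FPKM in the 11 libraries, which limits precision at low levels as counting error alone.

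The filter kept genes whose FPKM was 1 or more in 5 or more of 26 libraries (15672, of which 11969 protein-coding). limma 3.58.1 in R 4.3.3 fitted 1 mean per code to log2(FPKM + 1) of the 5 MM and 6 OS libraries, with a variance trend and no covariate, with Benjamini-Hochberg adjustment over all genes tested and a threshold of 0.05. The fit was also run on simulated data whose spread for each gene was that of these libraries. Noise was drawn independently for each gene and library, so no effect shared by a whole library was simulated. FPKM are not counts, so limma voom on the recovered reads was an alternative only. The other alternatives changed the pseudocount (0.1), the filter, the scaling, the libraries in the fit, library weights, robust variance and the replicate number as a block, or left out each library.

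As no gene passed, the text names the 10 protein-coding genes with the smallest p in each direction, the genes with the widest gap between codes, and for each list the members with the highest FPKM or without overlap. Thbs1, Tgfb1i1 and Gpcpd1 were known from earlier results. Further list members with an unadjusted p under 0.05 and the genes with seed sites were named after their values were seen. So were Cxcr2, Mcpt8, Isg15, Ago2, Il1b, Gpr34 and Fosb, the last with the lowest difference of the immediate early list. Some genes that the rule names are not reported here. Members and lists were chosen with earlier results of these data known, so no list count is independent support. Sites were searched in GENCODE M21 3′ UTRs, and microRNA and promoter sequences are those of RefSeq on GRCm38.p6. Replicate numbers were checked for pairing: the correlations of same-numbered MM and OS libraries were -0.15, -0.22, 0.36, -0.25 and 0.31. The libraries were fitted as unpaired, but so few correlations of mixed sign cannot exclude a pairing.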

Additional observations from a re-analysis of the deposited data

Results flagged for a closer look

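In 15 of 236 groups of libraries tested (2 codes for each gene and list described), the highest or lowest library stood apart from the others by Dixon's criterion, which chance alone meets in about 1 of 20 groups. OS5 was the library in 6 of the 15 and MM2 in 2.

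OS5 was low among the OS libraries for Insig1 (7.76 FPKM, others 13.7 to 14.3) and Adamts1 (6.92 FPKM, others 14.4 to 21.3). It was high for Hlf (1.64 FPKM, others 0.593 to 0.787) and Gpr34 (6.36 FPKM, others 2.50 to 3.02). Its list means were low for the immediate early genes (-1.53 on the log2 scale from the OS mean) and the matricellular genes (-0.31). OS6 was low for Ndrg2 (3.20 FPKM, others 4.503 to 5.195) and Fkbp5 (4.09 FPKM, others 6.39 to 7.74), and OS4 was high in the mean of the T-cell genes (0.70).

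Among the MM libraries, MM4 was high for Hlf (2.08 FPKM, others 1.40 to 1.51) and Gpr34 (6.09 FPKM, others 4.83 to 5.13), and MM3 was low for Jade2 (7.81 FPKM, others 9.49 to 9.81). MM1 was high in the mean of the inflammatory genes (0.19). MM2 stood apart in the mean of the pancreas genes (10.7) and of the B-cell genes (-0.68).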

How the results depend on the processing

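The count of 0 genes past the threshold held under 22 of 23 alternatives and was 1 without OS replicate 5, so it ran from 0 to 1 when each library was left out. Counts at an unadjusted p under 0.05 were 751 as reported, 1474 with library weights, 1407 without MM2 and OS5, and 1309 of 32459 genes with no filter; the lowest, 549, was without MM1. With the replicate number as a block, the count of calls was 0, that at an unadjusted p under 0.05 was 645, and the smallest adjusted p was 1. Libraries correlated best with their own number for 2 of 5 numbers, 3 and 5.

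Of 74 genes described, 3 changed sign under some alternative, none of them past the threshold: Il1b (-0.0735 without MM2 and OS5, -0.0753 to 0.23 with 1 library left out, negative without OS5), Prg2 (-1.59 to 0.14 with 1 left out, above 0 without MM1, MM5 or OS1) and Ear1 (-1.13 to 0.52 with 1 left out, above 0 without MM1, MM3, MM5, OS1 or OS5). Of 44 list medians, 22 changed sign somewhere, none of them of the neutrophil (-1.68 to -1.04), sterol (-0.30 to -0.18), clock (0.08 to 0.24) or immediate early (-0.66 to -0.22) lists. The cause was not tested. The all-gene median, -0.0037 as reported, lay between -0.00803 and 0.0326 under the other scalings, the highest without pancreas genes. With 5 and 6 libraries and a median standard error of 0.16, differences of the size seen here did not reach the threshold after adjustment.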

Other observations

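Eosinophil granule genes varied in the other codes of the series too. Prg2 ran from 54.6 to 496 FPKM in 5 further libraries of OVA with mimic (code MN), from 31.0 to 778 FPKM in 5 further libraries of OVA (code ON) and from 1.16 to 202 FPKM in 5 saline libraries (code CT). Over all 26 libraries Prg2 was highest in ON2, MM2 and OS1 (778, 705 and 565 FPKM) and lowest in CT4, OS6 and MM5 (1.16, 4.56 and 4.87 FPKM). Ear1 was at or above 90.2 FPKM in ON2, OS5, MM2 and OS1 (163, 108, 96.5 and 90.2 FPKM) and at 0.180 FPKM in OS6, the lowest.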
